A study of Rattus norvegicus with 8 samples.

Results

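The genes described here are 43 of the innate antiviral response, the set of genes that cells switch on after type I interferon or after sensing foreign nucleic acid. They were chosen by name from a list of 44 symbols, as rows of the deposited count table with that exact spelling and at least 10 total exon reads in 2 libraries. The symbol Xaf1 was not found in this spelling and was not counted. The list was chosen with earlier results of these data known, so shares of members beside those of all genes are descriptions only. The table held 32258 features, of which 12407 passed the filter on low counts and were tested, and all 43 members were among them. RNA was sequenced from H9C2 cells, a line of rat cardiomyoblasts, 2 days after transduction with a pDC316 vector. The vector carried a YFP fusion of PPARα with aspartate at serine 280, which mimics phosphorylation (S280D), with alanine there, which cannot be phosphorylated (S280A), or without a mutation (WT), and the control vector carried YFP alone (YFP). Each of these 4 groups held 2 libraries (n = 2 for every group), and every group, YFP included, had received the vector. Whether replicate libraries were grown as independent cultures is not stated, and the p-values therefore cover the spread between these libraries alone, which may be technical.

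Cells detect viral RNA with the cytosolic sensors RIG-I (Ddx58) and MDA5 (Ifih1), which signal through Mavs, and with the endosomal receptor Tlr3. Interferon binds a receptor made of Ifnar1 and Ifnar2, whose kinases Jak1 and Tyk2 phosphorylate STAT proteins, and STAT2 with IRF9 binds the interferon-stimulated response element (ISRE) in the promoters of induced genes. PPARα is a nuclear receptor that activates genes of fatty acid use in the heart, and it is also known to restrain inflammatory transcription.

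RefSeq promoters of the GRCr8 build were matched by symbol for 31 of the 43 members and searched for the ISRE core, written GAAA, then any 2 bases, then GAAA, on both strands, from 250 bases before to 50 bases after the gene's start. The core occurred in 14 of these 31 promoters (45.2%), against 1312 of 33469 promoters in the whole table (3.92%). The gamma-activated site TTCNNNGAA was found in 7 of the 31 (22.6%), against 8.87% of all promoters. Windows around the core are printed for 6 members that rose with S280D and WT and for 3 that did not rise, because the same letters stand before genes of either kind. Capitals mark the core, each line reads 5′ to 3′ on the strand of its gene, and a core on the other strand reads TTTC, any 2 bases and TTTC. In Oas1a a pair of overlapping cores forms 1 run of capitals.
Ifit3 (chr1:241527257-241527316, plus strand): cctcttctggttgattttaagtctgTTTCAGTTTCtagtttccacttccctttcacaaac
Rsad2 (chr6:48788233-48788292, minus strand): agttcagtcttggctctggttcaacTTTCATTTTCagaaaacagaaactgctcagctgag
Gbp5 (chr2:233910918-233910977, plus strand): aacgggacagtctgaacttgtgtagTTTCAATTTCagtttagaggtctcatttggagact
Parp14 (chr11:78408033-78408092, plus strand): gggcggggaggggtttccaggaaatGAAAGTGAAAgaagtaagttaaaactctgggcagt
Ifih1 (chr3:67683993-67684052, minus strand): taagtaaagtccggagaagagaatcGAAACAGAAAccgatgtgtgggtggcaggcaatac
Eif2ak2 (chr6:21941113-21941153, plus strand): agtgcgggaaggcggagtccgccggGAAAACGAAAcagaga
Irf7 (chr1:205800058-205800117, minus strand): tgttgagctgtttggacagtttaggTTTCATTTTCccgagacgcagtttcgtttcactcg
Ifitm3 (chr1:205541768-205541827, minus strand): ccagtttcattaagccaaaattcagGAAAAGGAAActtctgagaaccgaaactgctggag
Oas1a (chr12:41330400-41330465, plus strand): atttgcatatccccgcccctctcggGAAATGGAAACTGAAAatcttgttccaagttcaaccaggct

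Of the members higher in S280D than in YFP in the test described below, 9 of the 13 with a matched promoter held an ISRE core, and of those that did not pass, 4 of 17 did. The 1 member with a matched promoter that was lower in S280D than in YFP, Irf7, held a core too. For WT against YFP the counts were 10 of 15 members that rose and 4 of 16 that did not pass. In S280A against WT they were 9 of 13 lower members and 5 of 18 that did not pass. In S280D against S280A 7 of 11 higher members held a core, beside 3 of 5 lower ones and 4 of 15 that did not pass. A match describes these letters only and is not a binding site.

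The libraries held 14018785 to 39526013 exon reads. Levels are given as CPM, the exon reads of a gene scaled to a common library size with TMM factors, and per kilobase of exon where genes are compared with each other. Ppara itself, read from the cell's own gene and the delivered one together, stood at 17911 and 17693 CPM in S280D, 17400 and 13736 CPM in S280A, 12382 and 24134 CPM in WT, and 74.4 and 59.5 CPM in YFP. Ptprc and Tyrobp, which mark leukocytes, had no read in any library, and Cd14 was the only one of 14 leukocyte markers above 2 CPM (19.1 to 25.5 CPM). The summed level of the 14 was 21.1 to 22.4 CPM in S280D, 23.2 to 23.6 CPM in S280A, 20.4 to 23.1 CPM in WT and 21.2 to 26.8 CPM in YFP. Of the muscle markers of H9C2, Tnnt2 was at 129 CPM or more and Gata4 at 6.01 CPM or more in every library, while Des, Myog, Myod1 and Nkx2-5 stayed under 1 CPM. The 7 fibroblast and mesenchyme markers summed to 46181 to 50099 CPM in S280D, 59803 to 70776 CPM in S280A, 42759.5 to 48661 CPM in WT and 62208 to 67647 CPM in YFP. This sum was lower in S280D and WT than in S280A and YFP, a line along which some of the members below also split. Its part in the results was not tested. Within it Col1a1 stood at 18968 to 34547 CPM and Pdgfra at 0.562 CPM or less. The 18 muscle markers, which did not split in this way, summed to 834 to 840 CPM in S280D and 840 to 993 CPM in S280A. Their sum was 652 to 724 CPM in WT and 814 to 870 CPM in YFP. RNA came from whole cultures, so a change in the share of responding cells and a change in RNA per cell cannot be told apart.

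The antiviral genes were abundant in all groups, the YFP control included. Their median level in YFP was 53.6 CPM per kilobase, against 7.43 CPM per kilobase over all genes tested, and 13 of the 43 lay at or above the 95th percentile. Ifitm3, a membrane protein that blocks virus entry, stood highest at 2174 CPM per kilobase in YFP. It was followed by the RNA-binding effector Ifit3 at 999 CPM per kilobase and the transcription factor Irf7 at 823 CPM per kilobase. Together the members took 1.88% and 1.94% of the exon reads in S280D and 1.60% and 1.62% of those in S280A, beside 2.15% and 2.18% in WT and 1.56% and 1.81% in YFP. Interferon transcripts themselves were rare. Ifnb1, which encodes interferon beta, had 25 and 9 reads in the S280D libraries, 1 and 10 reads in S280A, 4 and 8 reads in WT, and 3 and 4 reads in YFP, and did not pass in any comparison. Ifng, Ifna5, Ifnl3 and Ifnk had no read in any library, which allows up to 0.0759 CPM in the deepest library and 0.214 CPM in the shallowest, for counting error only.

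**Figure D1:**
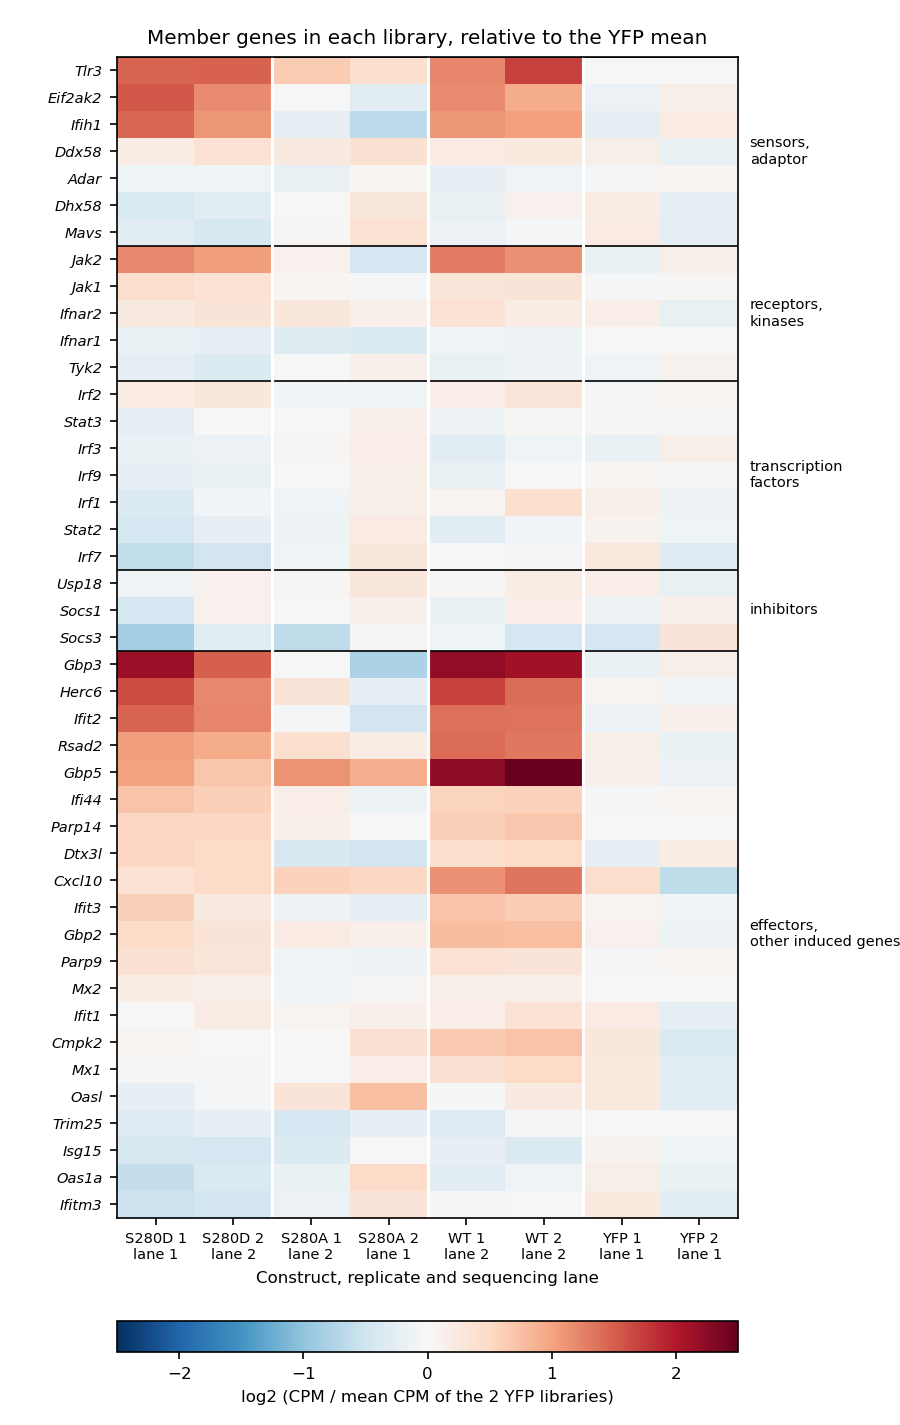
Level of the 43 member genes (rows, grouped by role) in each of the 8 libraries (columns, by construct, replicate and lane), as log2 of CPM over the mean CPM of the 2 YFP libraries, red above and blue below that mean. The S280D and WT columns share a block of red rows, led by Gbp3, Ifit2, Herc6, Tlr3 and Eif2ak2, while the transcription factors and inhibitors stay pale in most columns.

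With edgeR's quasi-likelihood test and Benjamini-Hochberg adjustment over all genes tested, a gene is said to have risen or fallen at an adjusted p under 0.05. In S280D 16 of the 43 members rose over YFP and 2 fell, where 17.1% of all genes tested rose and 13.7% fell. In WT 17 members rose and 0 fell, against a background of 12.2% of genes higher and 7.45% lower. In S280A 0 members passed in either direction relative to YFP, where 0.0403% of all genes rose and 0% fell. For S280A against YFP 8 members (18.6%) reached an unadjusted p under 0.05, beside 1439 of all genes (11.6%). With DESeq2 1 member passed there, Gbp5, beside 100 genes in all. The median log2 fold change of the members over YFP was 0.09 for S280D, 0.06 for S280A and 0.24 for WT, beside -0.02, -0.02 and -0.01 over all genes. These comparisons share the YFP libraries. In the test for any difference among the 4 groups 18 members passed, against 36.0% of all genes. Without S280D replicate 1, the members that still passed in S280D against YFP were Eif2ak2, Herc6, Ifi44, Ifih1, Ifit2, Jak2, Rsad2 and Tlr3. Without WT replicate 1, those that still passed in WT against YFP were Gbp5, Herc6, Ifit2, Jak2, Rsad2 and Tlr3. Calls over all genes fell strongly in both fits as well, so the loss is not particular to the members.

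Among the 7 sensors and their adaptor, the same 3 genes rose in S280D and in WT over YFP, and the rest did not pass. Ifih1, the sensor of long double-stranded RNA, stood at 129.8 and 103 CPM in S280D, 41.8 and 30.4 CPM in S280A, 103 and 98.1 CPM in WT, and 40.4 and 55.7 CPM in YFP. Both S280D and both WT libraries lay above every S280A and YFP library. The log2 fold change was 1.28 ± 0.19 (SE) for S280D over YFP (edgeR adjusted p = 0.00139) and 1.06 ± 0.19 for WT over YFP (adjusted p = 0.00615). Eif2ak2, the kinase PKR that halts translation on double-stranded RNA, had 835 and 642 CPM in S280D, 286 and 232 CPM in S280A, 643 and 538 CPM in WT, and 255 and 313 CPM in YFP. Its groups separated in the same way, with log2 fold changes of 1.38 ± 0.17 for S280D and 1.06 ± 0.17 for WT over YFP (edgeR adjusted p = 0.000754 and 0.00458). Tlr3, the endosomal receptor, stood at 12.96 and 13.1 CPM in S280D, 7.30 and 6.28 CPM in S280A, 11.1 and 15.5 CPM in WT, and 4.69 and 4.75 CPM in YFP. Here the S280A libraries lay between the others, and the log2 fold changes over YFP were 1.46 ± 0.21 for S280D and 1.49 ± 0.21 for WT (edgeR adjusted p = 0.00122 and 0.00336). Ddx58, the sensor of short RNA ends, kept within a narrower range, at 326 and 368 CPM in S280D, 333 and 371 CPM in S280A, 329 and 338 CPM in WT, and 316 and 255 CPM in YFP. Its log2 fold change of 0.28 ± 0.13 for S280D over YFP did not pass (edgeR adjusted p = 0.122). The related helicase Dhx58, the adaptor Mavs and the RNA-editing enzyme Adar did not pass over YFP with any construct.

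Of the 5 receptor chains and kinases, Jak2 rose in S280D and WT, Jak1 rose in S280D, and Ifnar1, Ifnar2 and Tyk2 did not pass in any comparison. Jak2, a kinase of the interferon gamma and cytokine receptors, stood at 91.2 and 81.3 CPM in S280D, 42.8 and 29.6 CPM in S280A, 95.9 and 87.1 CPM in WT, and 35.4 and 43.9 CPM in YFP. The S280D and WT libraries were all above those of S280A and YFP. The log2 fold changes were 1.12 ± 0.17 for S280D and 1.21 ± 0.17 for WT over YFP (edgeR adjusted p = 0.00172 and 0.00336). Jak1, which serves the interferon receptor directly, had 222 and 209.5 CPM in S280D, 169.9 and 159.5 CPM in S280A, 201 and 204 CPM in WT, and 160.2 and 166 CPM in YFP. Its change was smaller, at a log2 fold change of 0.40 ± 0.11 for S280D over YFP (edgeR adjusted p = 0.0169) and 0.31 ± 0.11 for WT over YFP (adjusted p = 0.0612).

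None of the 7 transcription factors rose, and 1 of them fell. Irf7, which drives late interferon production, had 1054 and 1171 CPM in S280D, 1516 and 1982 CPM in S280A, 1614 and 1582 CPM in WT, and 1956 and 1292 CPM in YFP. The S280D libraries were the lowest of the 8, and the YFP libraries differed widely. Irf7 fell by 0.55 on the log2 scale in S280D against YFP (SE 0.19, edgeR adjusted p = 0.0452), which without YFP replicate 1 became -0.22 (adjusted p = 0.391) and with lane as a covariate -0.48 (adjusted p = 0.173). Irf7 also no longer passed without either S280D library, without either WT library (log2 values from -0.62 to -0.46 in these fits) or with RLE size factors. The factors Irf1, Irf2, Irf3, Irf9, Stat2 and Stat3 had log2 fold changes over YFP between -0.32 (Stat2) and 0.25 (Irf2) in S280D and did not pass with any construct. Stat2, which carries the interferon signal with Irf9, stood at 669 and 779.6 CPM in S280D, 826 and 1041 CPM in S280A, 756 and 864 CPM in WT, and 966 and 839.8 CPM in YFP. The inhibitors Socs1 and Socs3, which block JAK kinases, and Usp18, which removes ISG15 and dampens the receptor, did not pass in any comparison. Socs3 rested on 24 to 64 reads per library, at 1.45 to 3.27 CPM.

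Effectors, the largest role with 21 of the 43 members, held most of the calls. Of these, 11 were higher and 1 lower in S280D than in YFP, where 17.1% and 13.7% of all genes were, and 13 were higher in WT than in YFP, beside 12.2%. In S280D over YFP 3 of 7 sensors and adaptor and 2 of 5 receptors and kinases also rose, with 0 of 7 transcription factors and 0 of 3 inhibitors. The Ifit genes, whose products bind foreign RNA, lie side by side on chromosome 1 of Rnor_6.0, with Ifit2 at chr1:252894663-252900726, Ifit3 at chr1:252906234-252911373 and Ifit1 at chr1:252944103-252946170. Ifit2 stood at 775 and 659.8 CPM in S280D, 272 and 203 CPM in S280A, 730.1 and 722 CPM in WT, and 254 and 310.1 CPM in YFP. Every S280D and WT library lay above every S280A and YFP library. The log2 fold change was 1.35 ± 0.16 for S280D and 1.36 ± 0.16 for WT over YFP (edgeR adjusted p = 0.000754 and 0.00187). Ifit3 had 3058 and 2387 CPM in S280D, 1875 and 1748 CPM in S280A, 3316 and 3177 CPM in WT, and 2139 and 1930.3 CPM in YFP. It rose by a log2 fold change of 0.42 ± 0.14 in S280D and 0.67 ± 0.14 in WT over YFP (edgeR adjusted p = 0.0386 and 0.00986). With lane as a covariate these values were 0.48 and 0.80 and did not pass (edgeR adjusted p = 0.0798 and 0.126). Ifit1, the neighbour, did not pass in any comparison, at log2 fold changes of 0.09 ± 0.15 for S280D and 0.26 ± 0.15 for WT over YFP.

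Guanylate-binding proteins are GTPases that attack intracellular pathogens, and their genes Gbp5, Gbp2 and Gbp3 lie between 248178389 and 248484100 on chromosome 2. Gbp5 stood at 15.2 and 12.2 CPM in S280D, 16.4 and 14.1 CPM in S280A, 35.6 and 43.0 CPM in WT, and 8.26 and 6.85 CPM in YFP. The WT libraries were the highest and the YFP libraries the lowest of the 8, with S280D and S280A between them and overlapping each other. The log2 fold change over YFP was 0.86 ± 0.19 in S280D, 1.02 ± 0.20 in S280A and 2.38 ± 0.19 in WT (edgeR adjusted p = 0.00765, 0.12 and 0.000252). Gbp3, with 0.585 CPM per kilobase in YFP against 2.43 CPM per kilobase for Gbp5, had 4.93 and 3.14 CPM in S280D, 1.12 and 0.644 CPM in S280A, 5.20 and 4.77 CPM in WT, and 0.995 and 1.23 CPM in YFP. It had the largest log2 fold change of all members in S280D over YFP, 1.87 ± 0.36 (edgeR adjusted p = 0.00426), and rested on 8 to 204 reads per library. Gbp2 rose less, by 0.39 ± 0.12 in S280D and 0.76 ± 0.12 in WT over YFP on the log2 scale (edgeR adjusted p = 0.0302 and 0.00439).

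Rsad2 encodes viperin, which makes a chain-terminating nucleotide, and lies near Cmpk2, the kinase that supplies it, on chromosome 6. Rsad2 stood at 522 and 477 CPM in S280D, 334 and 286 CPM in S280A, 668 and 626 CPM in WT, and 279 and 224 CPM in YFP. The S280D and WT libraries lay above those of S280A and YFP, with log2 fold changes over YFP of 0.99 ± 0.14 for S280D and 1.36 ± 0.14 for WT (edgeR adjusted p = 0.0011 and 0.000945). Cmpk2 rose in WT over YFP by 0.68 ± 0.20 on the log2 scale (edgeR adjusted p = 0.0325), and its S280D value of 0.04 ± 0.19 did not pass. The difference itself, S280D against WT, was -0.64 ± 0.19 and did not pass either (edgeR adjusted p = 0.709). The same held for Cxcl10, a chemokine that draws T cells, at 112 and 121 CPM in S280D, 130.1 and 124 CPM in S280A, 192 and 221 CPM in WT, and 118 and 56.5 CPM in YFP. Cxcl10 rose by 1.24 ± 0.25 in WT over YFP on the log2 scale (edgeR adjusted p = 0.00969), and S280D against WT was -0.82 ± 0.25 (adjusted p = 0.709). Of its exon reads 12.4% were uniquely placed, so its counts are uncertain.

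The ubiquitin ligase Dtx3l and its partner Parp9 adjoin on chromosome 11, which also carries Parp14, an ADP-ribosyltransferase related to Parp9. Dtx3l stood at 208 and 203 CPM in S280D, 111 and 106 CPM in S280A, 197 and 207 CPM in WT, and 127 and 165 CPM in YFP. All 3 genes rose in S280D and in WT over YFP, at log2 fold changes of 0.34 to 0.52 and 0.34 to 0.63. Herc6, the main ligase for ISG15 in mice, had 40.9 and 30.7 CPM in S280D, 16.6 and 11.5 CPM in S280A, 43.5 and 35.0 CPM in WT, and 13.9 and 12.6 CPM in YFP. Its log2 fold changes over YFP were 1.44 ± 0.21 for S280D and 1.56 ± 0.21 for WT (edgeR adjusted p = 0.00126 and 0.0032). Ifi44 rose by 0.66 ± 0.12 in S280D and 0.56 ± 0.12 in WT over YFP on the log2 scale (edgeR adjusted p = 0.004 and 0.0129).

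Several classic effectors did not follow. Isg15, the ubiquitin-like modifier, had 497 and 483 CPM in S280D, 518 and 658 CPM in S280A, 572 and 511 CPM in WT, and 699.8 and 612 CPM in YFP. The S280D libraries were the lowest and lay below both YFP libraries, with a log2 fold change of -0.42 ± 0.14 (edgeR adjusted p = 0.0378), which with lane as a covariate was -0.32 (adjusted p = 0.19). Isg15 also no longer passed without YFP replicate 1, without either S280D library or without either WT library, at log2 values from -0.42 to -0.32. Mx1, a GTPase that traps virus particles, stood at 1663 and 1658 CPM in S280D, 1691 and 1892 CPM in S280A, 2206 and 2388 CPM in WT, and 1999.9 and 1385 CPM in YFP, and Mx1 and Mx2 did not pass in any comparison. Ifitm3 and the oligoadenylate synthetases Oas1a and Oasl did not pass over YFP, nor did Trim25, the ligase that activates RIG-I.

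**Figure D2:**
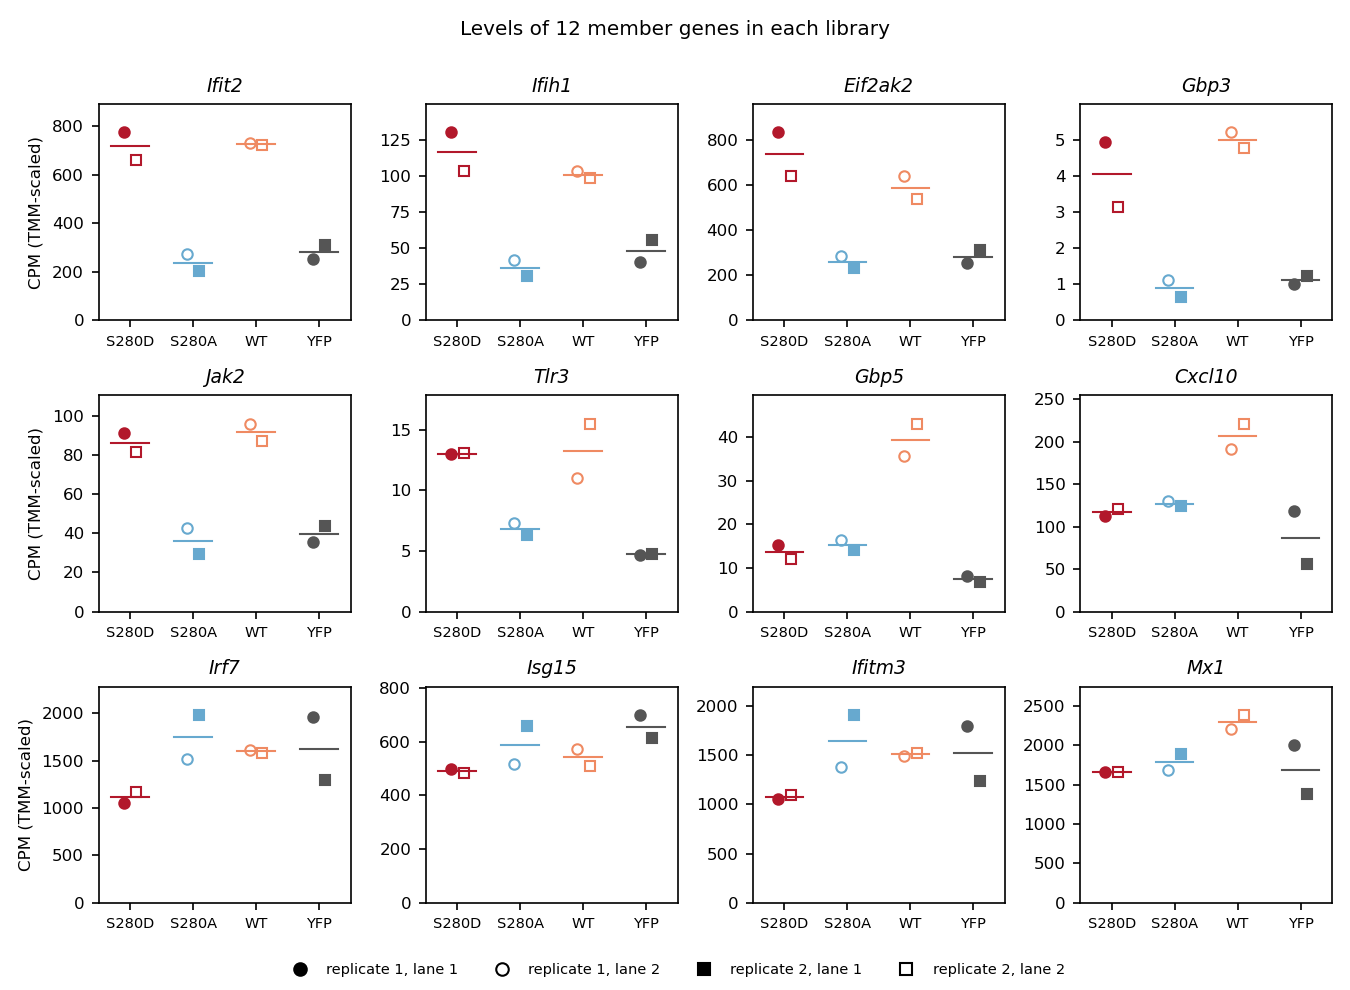
Level of 12 member genes in each library in TMM-scaled CPM (vertical axes start at 0), by construct from S280D to YFP. Circles are replicate 1, squares replicate 2, filled symbols lane 1, open symbols lane 2 and lines group means; Ifit2, Ifih1, Eif2ak2, Gbp3 and Jak2 split the S280D and WT libraries from the S280A and YFP libraries, Gbp5 sets WT apart, and Irf7, Isg15 and Ifitm3 are lowest in S280D.

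The constructs also differed among themselves. S280D against S280A passed for 20 members, 14 higher and 6 lower, where 21.3% and 18.0% of all genes tested were higher and lower. S280A against WT passed for 15 members, all lower in S280A, against backgrounds of 10.1% higher and 15.9% lower. Gbp3 had the largest log2 fold change in S280D over S280A, 2.18 ± 0.39 (edgeR adjusted p = 0.00272). Ifih1 followed at 1.69 ± 0.19, with Ifit2 at 1.59 ± 0.16, Eif2ak2 at 1.51 ± 0.17, Herc6 at 1.35 ± 0.21 and Jak2 at 1.25 ± 0.18 (edgeR adjusted p = 0.00159, 0.00159, 0.00159, 0.00185 and 0.00167). The 6 members lower in S280D than in S280A were Dhx58, Mavs, Ifitm3, Irf7, Oasl and Oas1a, at log2 fold changes from -0.47 (Dhx58) to -0.67 (Oas1a). Of Oas1a reads 62.7% were uniquely placed, so this gene is uncertain. Without S280A replicate 2, Dtx3l, Eif2ak2, Gbp3, Herc6, Ifih1, Ifit2 and Jak2 still passed in S280D against S280A. None of the 6 lower members passed without S280A replicate 2 or without S280D replicate 1. Calls over all genes fell strongly in both fits as well. For S280A against WT, Ifit2 fell by 1.61 on the log2 scale in S280A (SE 0.16, edgeR adjusted p = 0.00245). It was the only member that still passed without S280A replicate 2 or without WT replicate 1. Nearly all calls over all genes were lost in these fits too, so the loss is not particular to the members.

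S280D and WT differed in 1 member. Gbp5 was lower in S280D, at -1.52 ± 0.18 on the log2 scale (edgeR adjusted p = 0.0133), where 0% of all genes tested were higher and 0.0403% lower. Leaving out either WT or either S280D library ended this call, with log2 values from -1.37 to -1.69. At an unadjusted p under 0.05 there were 9 members (20.9%), beside 606 of all genes (4.88%). The members' median log2 difference was -0.12, beside 0.00 over all genes, and 32 of the 43 were lower in S280D than in WT, a count with no test.

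Lane was weighed because YFP was sequenced in lane 1 alone and WT in lane 2 alone, so that no within-lane value exists for WT against YFP. S280D and S280A had 1 library in each lane, which lets lane be fitted as a term across the 8 libraries. Ifit2 in S280D over S280A was 1.93 on the log2 scale within lane 1 and 1.28 within lane 2, and Ifih1 was 2.10 and 1.30. All 14 members higher in S280D than in S280A had positive differences in both lanes, and all 6 lower members negative ones, as single libraries with no test. Oas1a was the most uneven of the 6, at -1.08 in lane 1 and -0.20 in lane 2. Within lane 1, all 16 members that rose in S280D over YFP were higher in S280D, and within lane 2 all 15 members that fell in S280A against WT were lower. These members were called from the same libraries, so a shared sign was largely set by that selection and is not separate support. With lane as a covariate 11 members passed in S280D against YFP, 1 (Gbp5) in WT against YFP, 12 in S280A against WT and 19 in S280D against S280A. Of the members that rose in S280D over YFP, Dtx3l, Gbp2, Ifit3, Jak1 and Parp9 no longer passed with lane. Their log2 values were 0.35 (Parp9) to 0.49 (Dtx3l), at edgeR adjusted p from 0.0757 to 0.106. Over all genes 1654 passed in S280D against YFP under this fit in place of 3815, and 9 in WT against YFP in place of 2437. In S280A against WT 993 of all genes passed in place of 3226, and in S280D against S280A 4009 in place of 4873. The 17 members called in WT against YFP kept their direction, at a median size of 1.04 on the log2 scale with lane and 1.06 without it, while their median SE was 0.26 and 0.17. Ifit2 was 1.27 ± 0.24 in WT over YFP with lane as a covariate (edgeR adjusted p = 0.0664), and Jak2 was 1.04 ± 0.26 (adjusted p = 0.117). The lane term of the members ran from -0.22 to 0.22 (lane 2 over lane 1, log2). It passed for 0 members and 0 genes, with 0 members and 137 genes at an unadjusted p under 0.05.

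**Figure D3:**
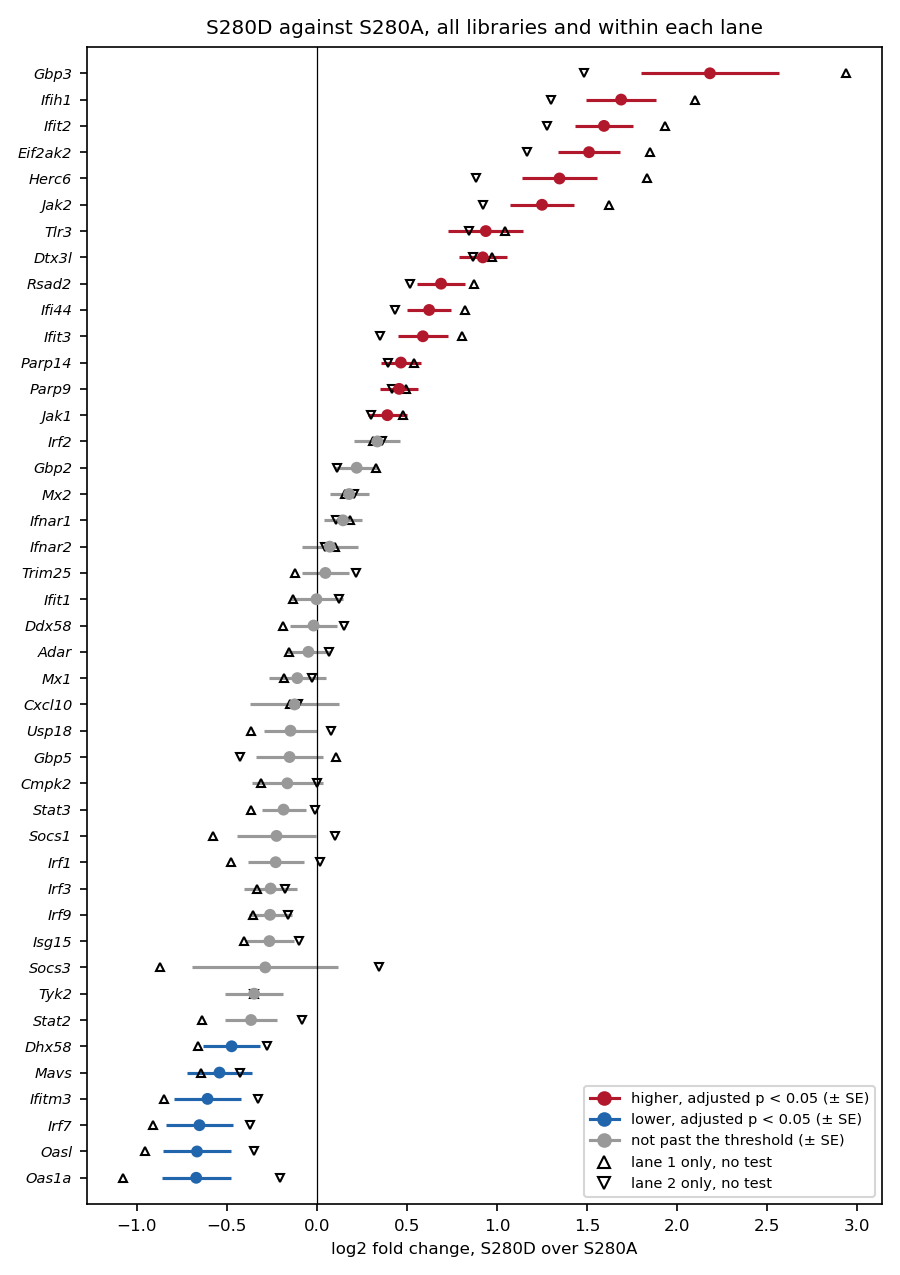
Log2 fold change of each of the 43 members in S280D over S280A (horizontal axis), as the edgeR estimate over all libraries with its SE (filled circles, red higher, blue lower, grey not past the threshold) and from the 1 S280D and 1 S280A library of each lane (open triangles). For all 20 members that passed, both triangles lie on the side of 0 where the circle is, which selection on these same libraries favours.

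Exon length moved with these results. Spearman's rho across all genes between a gene's exon length and its log2 level minus its average over the 8 libraries was 0.238 and 0.211 for S280D and 0.129 and 0.158 for WT. It was -0.14 and -0.232 for S280A and -0.247 and -0.0648 for YFP, and genes are not independent replicates. The mitochondrial share of exon reads split the libraries the same way, at 1.66% and 1.40% in the S280D libraries and 0.791% and 0.490% in those of S280A. It was 1.37% and 1.17% in WT, against 0.506% and 0.604% in YFP. The first principal component of all genes, with 56.4% of the variance, was positive in every S280D and WT library and negative in every S280A and YFP library. The part of these measures in the results was not tested beyond the exon length fit. Members that rose in S280D over YFP had a median exon length of 3627.5 bases, against 2433 for those that did not pass, and Irf7 and Isg15, which fell, had 1973 and 1314. With an offset per library for exon length, 10 members were higher and 6 lower in S280D than in YFP in place of 16 and 2, where 4363 of all genes passed in place of 3815 and the median of all genes moved to -0.13 on the log2 scale. The offset gave 13 higher and 0 lower in WT against YFP, 2 higher and 14 lower in S280A against WT, and 11 higher and 9 lower in S280D against S280A. Over all genes, calls under the offset numbered 2999, 3708 and 5331 in these 3 comparisons, in place of 2437, 3226 and 4873. Among the members that remained higher in S280D than in YFP under the offset were Ifit2, Ifih1, Eif2ak2, Jak2, Gbp3, Herc6, Rsad2, Ifi44 and Tlr3. Dtx3l, Parp9, Parp14, Jak1, Gbp2 and Ifit3 no longer passed in S280D against YFP.

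Intron reads were counted apart from exon reads and were sufficient for 38 members. Such reads can come from RNA not yet spliced, but their source was not checked here. They were not tested. The members were called from exon reads of these same libraries, so a shared sign of intron and exon changes is not separate support. How many of all genes called had introns of the same sign was not counted. All 15 members with enough intron reads that rose in S280D over YFP had higher intron levels in S280D, at a median log2 ratio of 1.07 beside -0.01 over all genes. The same held for all 15 with enough intron reads that rose in WT over YFP, at a median of 1.41. All 14 such members that fell in S280A against WT had lower intron levels in S280A, at a median of -1.10. The values ran from -3.70 (Ifit2) to -0.02 (Jak2). Jak2 introns overlapped between these groups, at 17.1 and 9.38 CPM in S280A and 16.4 and 10.5 CPM in WT, while its exon value was -1.33. Members that did not pass leaned the same way, less strongly. Introns were higher for 15 of 21 in S280D over YFP (median 0.16) and 15 of 23 in WT over YFP (median 0.16). They were lower for 19 of 24 in S280A against WT (median -0.24). Rsad2 introns had 85.9 and 73.6 CPM in S280D, 37.9 and 32.8 CPM in S280A, 92.8 and 87.7 CPM in WT, and 29.5 and 37.8 CPM in YFP, so their groups separated as the exon levels did. Irf7 introns were at 829 and 858 CPM in S280D, 1416 and 2389 CPM in S280A, 1327 and 1334 CPM in WT, and 2903 and 1669 CPM in YFP, lowest in S280D. Mx1 introns had 257 and 264 CPM in S280D, 143 and 133 CPM in S280A, 290.2 and 278 CPM in WT, and 152 and 178 CPM in YFP, so that both S280D and WT libraries lay above all S280A and YFP libraries while the exon levels overlapped. Of the 13 members with enough intron reads that were higher in S280D than in S280A, 12 had higher introns, with Jak2 at 0.20. The exception was Jak1 at -0.42. Of the 6 members lower in S280D than in S280A, 4 had lower introns, at a median of -0.10, and Oas1a and Oasl lay at 0.10 and 0.05. Of the 19 that did not pass, 14 had higher introns in S280D, at a median of 0.34.

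**Figure D4:**
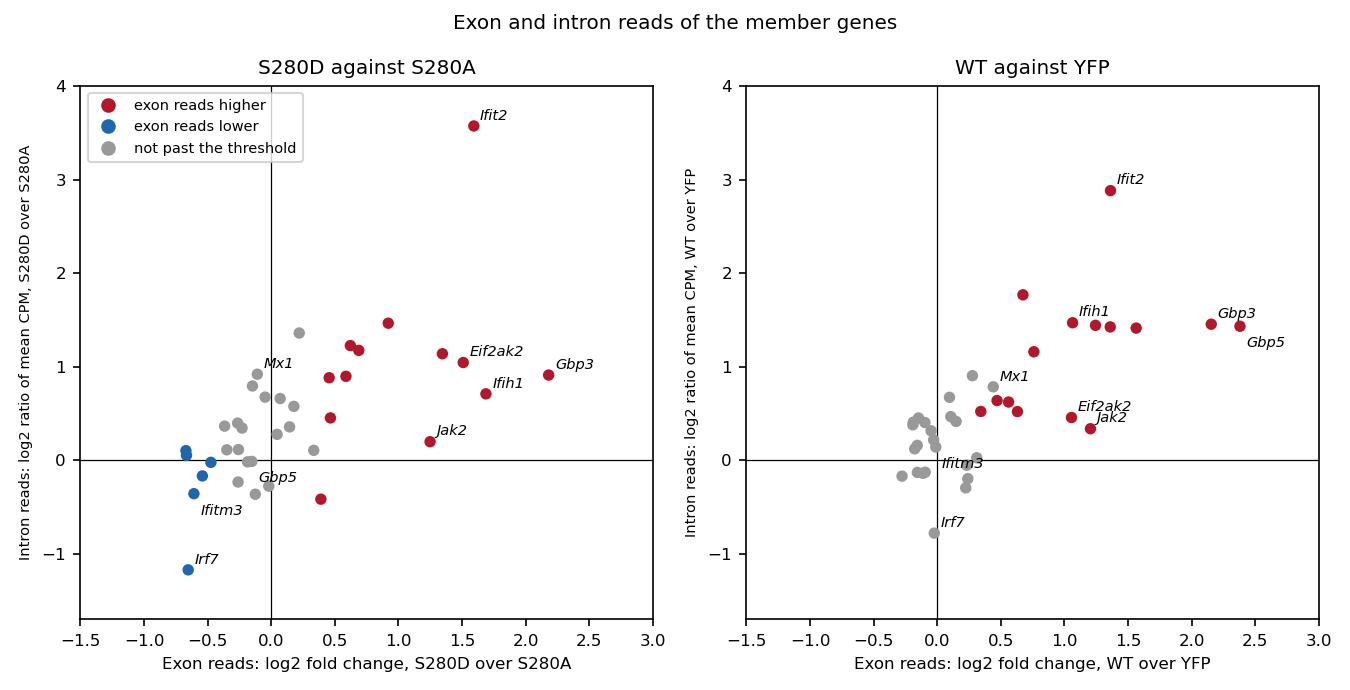
Log2 fold change of exon reads (horizontal axis, edgeR) against the log2 ratio of mean intron CPM (vertical axis, no test) for the 38 members with enough intron reads, in S280D over S280A (left) and WT over YFP (right). Red, blue and grey mark exon reads that were higher, lower or not past the threshold; Ifit2, with 133 intron reads in all, lies highest in both panels, and every red point on the right lies above 0.

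Lists of further genes of the pathway, also chosen with earlier results of these data known, were read in the same fit. Of 57 other interferon-induced genes tested, 14 rose (24.6%) and 6 fell (10.5%) in S280D over YFP, where 17.1% and 13.7% of all genes did. In WT over YFP 18 rose (31.6%) and 1 fell (1.75%), against 12.2% and 7.45% of all genes. Samd9l, a translational inhibitor, stood at 369 and 252 CPM in S280D, 94.5 and 66.3 CPM in S280A, 262 and 216 CPM in WT, and 65.7 and 52.0 CPM in YFP. Its log2 fold change in S280D over YFP was 2.40 ± 0.22 (edgeR adjusted p = 0.000462), beside 2.04 ± 0.21 for the helicase Ddx60 (adjusted p = 0.000702). Pnpt1, which processes RNA in mitochondria, had 92.5 and 76.0 CPM in S280D, against 25.4 and 34.0 CPM in YFP (edgeR adjusted p = 0.000754). Ifi27 fell by 0.93 in S280D against YFP on the log2 scale (SE 0.14, adjusted p = 0.00177). Within S280D against S280A 14 of the 57 were higher (24.6%) and 11 lower (19.3%), close to the 21.3% and 18.0% of all genes, and within S280A against WT 1 was higher (1.75%) and 18 lower (31.6%), beside 10.1% and 15.9%. In S280A against YFP and in S280D against WT 0 of the 57 passed, with Lgals9 (unadjusted p = 0.00409) and Epsti1 (unadjusted p = 0.000304) the smallest.

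Of 33 other sensing and signalling genes tested, 9 rose (27.3%) and 5 fell (15.2%) in S280D over YFP, and 7 rose (21.2%) and 1 fell (3.03%) in WT over YFP, beside the shares of all genes given above. Tank, a scaffold of the kinases that activate IRF3, had 34.5 and 27.3 CPM in S280D, 16.6 and 12.1 CPM in S280A, 28.0 and 29.2 CPM in WT, and 11.7 and 13.3 CPM in YFP, a log2 fold change of 1.31 ± 0.19 in S280D over YFP (edgeR adjusted p = 0.00124). Mb21d1, the cytosolic DNA sensor cGAS, rose by 1.09 ± 0.22, and Trex1, the nuclease that removes cytosolic DNA, fell by 1.26 on the log2 scale (SE 0.23) in S280D over YFP (edgeR adjusted p = 0.00575 and 0.00336). Trex1 was at 36.1 and 41.8 CPM in S280D, 60.0 and 106 CPM in S280A, 47.5 and 61.9 CPM in WT, and 98.9 and 87.6 CPM in YFP. Of 21 further inhibitors of the pathway, 5 rose (23.8%) and 3 fell (14.3%) in S280D over YFP and 4 rose and 2 fell in WT over YFP, with Pias1 at 0.88 ± 0.17 and Irf2bp1 at -0.66 ± 0.13 in S280D over YFP (edgeR adjusted p = 0.00474 and 0.00488).

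The authors' deposited table, a test of the same reads, called 13 members higher in S280D against YFP and 16 in WT against YFP, all of which were also called higher here, and 0 lower in either. It did not call Irf7 (false discovery rate 0.0596), Isg15 (0.0918), Ifit3, Gbp2 or Parp9 in S280D against YFP, nor Parp9 in WT against YFP. In S280A against YFP the authors' deposited table called 1 member, Gbp5, at a fold change of 2.03 and a false discovery rate of 0.00572. For S280D against S280A it called 14 members higher and 4 lower, leaving out Dhx58 and Mavs.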

How the data were processed

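Libraries were directional, paired-end and made from poly(A)-selected RNA, per the labels' protocols. The deposited table gives raw counts per gene, without normalization, as exon reads (total and unique) and intron reads, per the file headers. It also holds the authors' pairwise tests, as a score (a signed fold change) and a p-value with false discovery rate correction, per the file headers. The build is Rnor_6.0, per the submitters' processing notes. Not given in the sources used here are the aligner, the annotation and whether counting used strand. Of the table, 80 per-sample columns were not used. Lanes were taken from the column headers, and WT replicate 2 carries the number 3 in its description.

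Total exon reads were tested in edgeR 4.0.16 (R 4.3.3) with filterByExpr, TMM scaling and the quasi-likelihood test, two-sided, with 1 coefficient per group over all 8 libraries, 4 residual degrees of freedom and Benjamini-Hochberg adjustment over 12407 genes at a threshold of 0.05. The SE of a log2 fold change is its size over the root of the F statistic. CPM are TMM-scaled; the exon length used per kilobase is that of the table. Intron and within-lane log2 ratios are of mean CPM. Alternatives were RLE size factors, 2 other filters on low counts, DESeq2 1.42.0, unique exon reads, lane or replicate number as a term, an exon length offset and leaving out each library, whose group's lone sample is then assumed to vary like the others. Scripts were tested on simulated data. Members, lists and roles were chosen with earlier results of these data known. All members may be named; of the further lists, up to 4 genes that passed with the smallest adjusted p per comparison, or up to 2 with the smallest p where none passed, and markers were read over fixed lists. Reads were amplified by PCR and carry no molecular identifier, so counts are not counts of molecules.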

Additional observations from a re-analysis of the deposited data

How the results depend on the processing

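Of 71 calls of a member in a pairwise comparison, none reversed in any alternative run. DESeq2, unique exon reads and a filter of at least 10 reads in 2 libraries kept all 71, and RLE size factors and no filter on low counts kept 70 each. An exon length offset kept 56 and lane as a covariate 43. The correlation of same-numbered deviations was -0.0916 for WT and YFP, -0.173 for S280A and YFP and -0.144 for S280D and YFP. Between the receptor constructs it was 0.118 to 0.205. With 2 libraries per group each value rests on 1 difference per group, so it cannot show whether replicate numbers paired the libraries. With the replicate number as a block, 16 members passed in S280D against YFP, 16 in WT against YFP and 17 in any difference, in place of 18, 17 and 18. Over all genes 3398, 2152 and 3822 passed there, in place of 3815, 2437 and 4466. Irf7 and Isg15 no longer passed in S280D against YFP with this block. With lane as a covariate 11 members passed in S280D against YFP, 1 in WT against YFP and 0 in S280D against WT, where Gbp5 stood at -1.55 with lane and -1.52 without it (log2). All 71 kept their direction there. Over all genes 9 passed in WT against YFP in place of 2437, and 1654 in S280D against YFP in place of 3815. In S280D against WT 1 of all genes passed in place of 5. Without a filter 3 members passed in S280A against YFP and 6 in S280D against WT. Over all 20259 genes tested there, 278 and 129 passed, in place of 5 and 5 with the filter. DESeq2 called 1 member in S280A against YFP, beside 100 genes in all. The cause was not tested. Leaving out each library in turn gave 8 to 20 members in S280D against YFP, 6 to 17 in WT against YFP, 0 to 1 in S280A against YFP, 0 to 2 in S280D against WT, 1 to 19 in S280A against WT, 7 to 22 in S280D against S280A and 15 to 24 in any difference. The group concerned then has 1 library, and calls over all genes moved widely in these fits as well. Gbp3 rests on 8 to 204 reads per library and Socs3 on 24 to 64.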
